A study of Homo sapiens with 10 samples.

Results

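Gene expression in liver metastasis derivatives of SW620 was set against that in the parental line. SW620 is a human colon cancer cell line. The arrays were taken by title: 3 arrays of liver derivatives (liver arrays 1 to 3) and 4 of parental cells (parental arrays 1 to 4), which are 7 of 10 arrays, while the other 3 hold lung derivatives. Each comparison was also made against parental arrays 1 to 3, because parental array 4 stood apart from them. All rows of the array table with a single gene symbol were used, 54806 of 65535, and averaged into 4713 genes, 4660 of them on chromosomes 1, 10, 11 and 12; genes elsewhere are not analysed here.

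The derivatives were obtained by letting SW620 cells form metastases in balb/c nude mice, recovering the tumour cells and growing them in culture. Parental and derivative cells were kept in the same medium, DMEM with fetal bovine serum, glutamine, penicillin and streptomycin, so each array measured cultured cells and not tissue. The labels give balb/c as the strain of every sample, parental cells included, although that is the strain of the host. They call the arrays of a group biological replicates but do not tell whether these came from different metastases or from different dishes of 1 derivative. The p-values therefore measure only the spread between these samples, which may be technical.

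Colon cancer cells reach the liver mainly through the portal vein, pass the wall of the sinusoids and grow among hepatocytes, stellate cells and Kupffer cells. Selection in a host followed by culture enriches cells that survived this route. Programs often studied in this setting are Wnt and Notch signalling, epithelial keratins and junctions, adhesion receptors, and the enzymes and transporters with which epithelial cells handle drugs, steroids and oxidised lipids.

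All values are log2 RMA levels, and a gene's level is the mean over its rows, read here as probe sets that each cover a part of it. Array medians lay between 8.52 and 8.60. On the first principal component of the gene means (44.6% of the variance) parental arrays 1 to 3 scored from -13.1 to -9.41, the liver arrays from -0.58 to 0.37, parental array 4 at -1.68 and the lung arrays from 9.50 to 13.3. On the second (25.6%) parental array 4 scored 12.9, the liver arrays from -10.1 to -8.91 and the other 6 arrays from 1.48 to 4.16. Across genes, which are not independent replicates, parental array 4 correlated at 0.989 to 0.991 with the other parental arrays, 0.984 to 0.987 with the lung arrays and 0.982 to 0.984 with the liver arrays. Keratins of simple epithelium were bright in all 7 arrays: KRT8 lay between 12.72 and 12.84, and KRT18 between 11.51 and 11.78. The list of 18 colon markers had a median level of 8.27 in parental and 8.03 in liver arrays. Below these medians lay GUCY2C (5.87 to 6.12) and MUC2 (7.23 to 7.46) in both groups. As a range of dim signal, 228 olfactory receptor genes, which most cells outside the nose do not express and which were chosen after values had been seen, had parental levels with a 5th percentile of 4.41 and a 95th of 7.40, and 0 of them were called (limma; 3 at an unadjusted p under 0.05). Rows differ in affinity, so this range does not rank genes against each other.

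Liver derivatives differed from the 4 parental arrays in 369 genes at an adjusted p under 0.05 (7.83% of those tested), of which 204 were higher (4.33%) and 165 lower (3.5%). Against parental arrays 1 to 3 the count was 422 (8.95%), with 219 higher (4.65%) and 203 lower (4.31%). Both fits, which share all but 1 array, called 345 genes, 188 higher and 157 lower. The called changes were mostly small: their median size was 0.49 on the log2 scale, against 0.09 over all genes. Changes of at least 1 log2 unit numbered 49, with 27 higher and 22 lower, and the 5 of at least 2 log2 units were all rises. In 368 of the 369 called genes the liver arrays lay wholly outside the parental range, and PTHLH was the exception; over all genes tested 20.2% did so, 11.1% above the range and 9.17% below it. By single rows 1217 were called (2.22%), 637 higher (1.16%) and 580 lower (1.06%). The count came to 241, 219 and 239 without liver array 1, 2 or 3. When the brightest row stood for its gene it was 134. Under that choice 37 of the 85 genes named by the rule given below kept their direction but did not pass, and 6 reversed. Those that kept it without passing included A1CF, CCND2, CNTN1, NCAM1, NRP1, SLCO1B3, LGR5, CD44, EPHB2, EFNA4, KRT6A, PLAU and HTRA1.

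The 3 largest rises were those of MUCL1, RAB25 and KRT5. MUCL1 encodes a small secreted mucin-like protein of breast and other glands. It lay at 6.54, 6.83, 6.86 and 7.17 in parental arrays 1 to 4 and at 10.24, 10.34 and 10.35 in liver arrays 1 to 3, a rise of 3.46 (SE 0.22, adjusted p = 2.81e-06), with 9 of 10 rows called. RAB25 encodes a small GTPase that returns cargo from recycling endosomes to the apical membrane and integrins to the leading edge. It lay at 6.04, 6.31, 6.21 and 6.13 in parental and at 9.22, 9.22 and 9.09 in liver arrays, a rise of 3.01 (SE 0.07, adjusted p = 1.08e-09), with 5 of 5 rows called. KRT5, the keratin typical of basal cells in stratified epithelium, lay at 7.21, 7.25, 7.39 and 6.96 in parental and at 9.56, 9.53 and 9.45 in liver arrays (2.31, SE 0.15, adjusted p = 2.90e-06). In each of these 3 genes the groups were separated by a wide gap, and the 3 liver arrays sat close together. The leading rises and falls were picked among genes whose groups did not overlap. A lack of overlap is therefore part of the choice, here and below. Their parental levels lay within the dim range given above, so no linear fold is given for them. Seen by row, the rise of KRT5 was uneven, from -0.07 to 4.20 over 10 rows with 7 called, and that of MUCL1 ran from 0.69 to 6.82. In cultures measured in bulk, more cells that express a gene and more RNA per cell cannot be told apart.

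**Figure D1:**
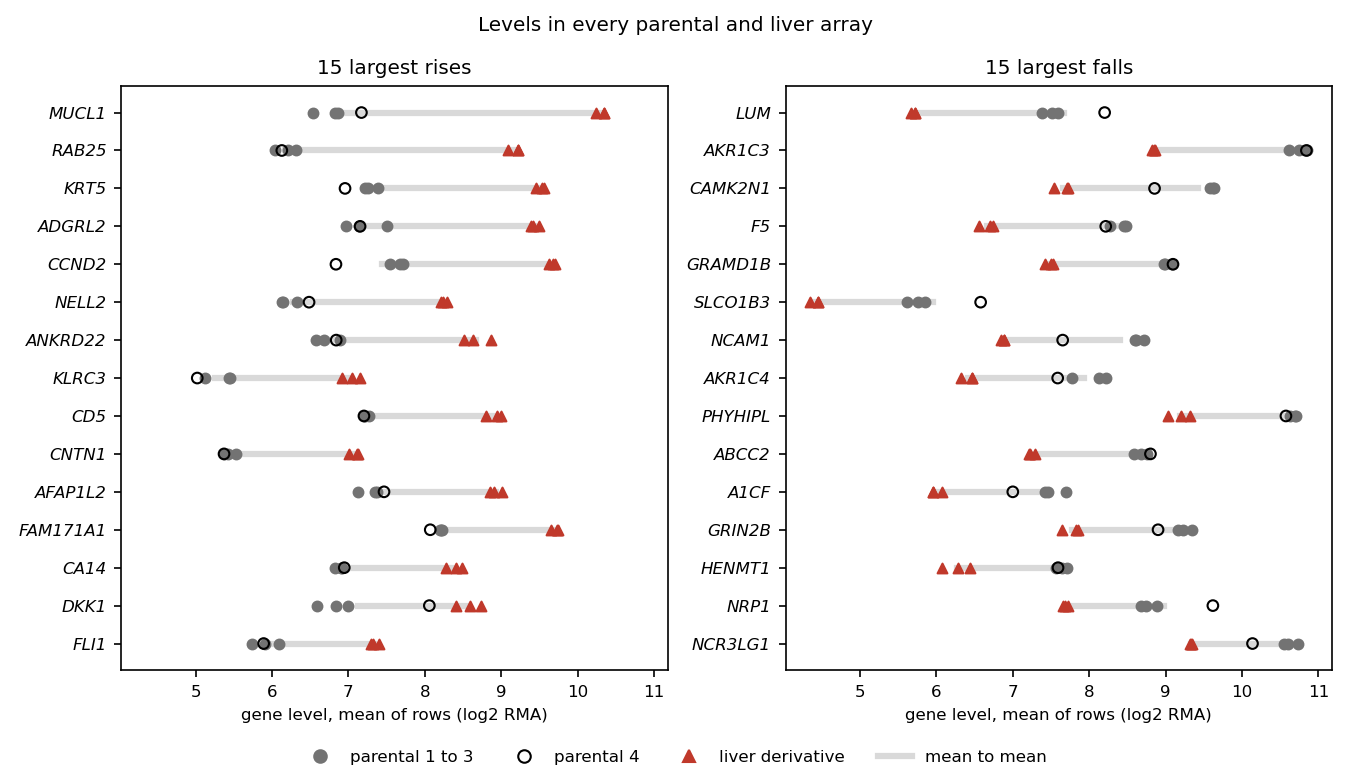
Levels (mean of rows, log2 RMA, horizontal axis) of the leading genes that rose or fell, with 1 point per array for parental arrays 1 to 3, parental array 4 and liver arrays 1 to 3 and a line joining the group means. In MUCL1 the liver arrays sit between 10.24 and 10.35 and the parental arrays between 6.54 and 7.17, and in AKR1C3 the order of the groups is the opposite.

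Among 36 measured keratin and epithelial junction genes, 5 were called higher and 1 lower, with a median change of 0.11 against 0.01 over all genes. Against the 4 parental arrays the shares called over all genes were 4.33% higher and 3.5% lower, for this list and every later one. Besides KRT5 the rises were KRT6A (0.94, SE 0.16, but 0.034 in its brightest row), a keratin of wounded and squamous epithelium, PKP1 (0.50, but -0.13 in its brightest row), a desmosomal plaque protein, KRT2 (0.35) and KRT74 (0.37). CGN, which encodes the tight junction protein cingulin, fell by 0.30. KRT8 (0.02) and KRT18 (0.11), the bright keratins of simple epithelium, did not pass the test. Among 18 Rab GTPases and partners RAB25 and RAB42 (0.74) rose and RAB29 (-0.37) fell, and the list median was 0.04. CRABP2, a retinoic acid carrier, and the secretoglobin SCGB1D1, both chosen after their values were seen, rose by 1.42 (10 of 10 rows) and 1.05 (1 of 3 rows).

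Other leading rises were ADGRL2, CNTN1 and NELL2. ADGRL2, an adhesion G protein-coupled receptor of the latrophilin family, lay at 7.50, 7.14, 6.97 and 7.15 in parental and at 9.41, 9.50 and 9.39 in liver arrays (2.24, SE 0.10, adjusted p = 2.04e-07; 23 of 26 rows). CNTN1, a neuronal contactin anchored to the outer membrane, lay between 5.37 and 5.52 in parental and between 7.01 and 7.12 in liver arrays (1.65, SE 0.06; 11 of 26 rows, and 0.22 in the brightest row). NELL2, a secreted ligand of Robo receptors, rose by 1.97 (SE 0.20; 12 of 23 rows), although its brightest row changed by -0.11. The groups did not overlap in any of the 3, which the choice of leading rises required. In CNTN1 and NELL2 a smaller share of the rows was called than in ADGRL2. Other rises of similar size were the ankyrin-repeat gene ANKRD22 (1.93; 6 of 7 rows), the actin-associated adaptor AFAP1L2 (1.60; 16 of 21), FAM171A1 (1.53; 8 of 10), the membrane carbonic anhydrase CA14 (1.49; 7 of 13) and FLI1 (1.43; 5 of 10), an ETS factor of blood and endothelial cells.

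**Figure D2:**
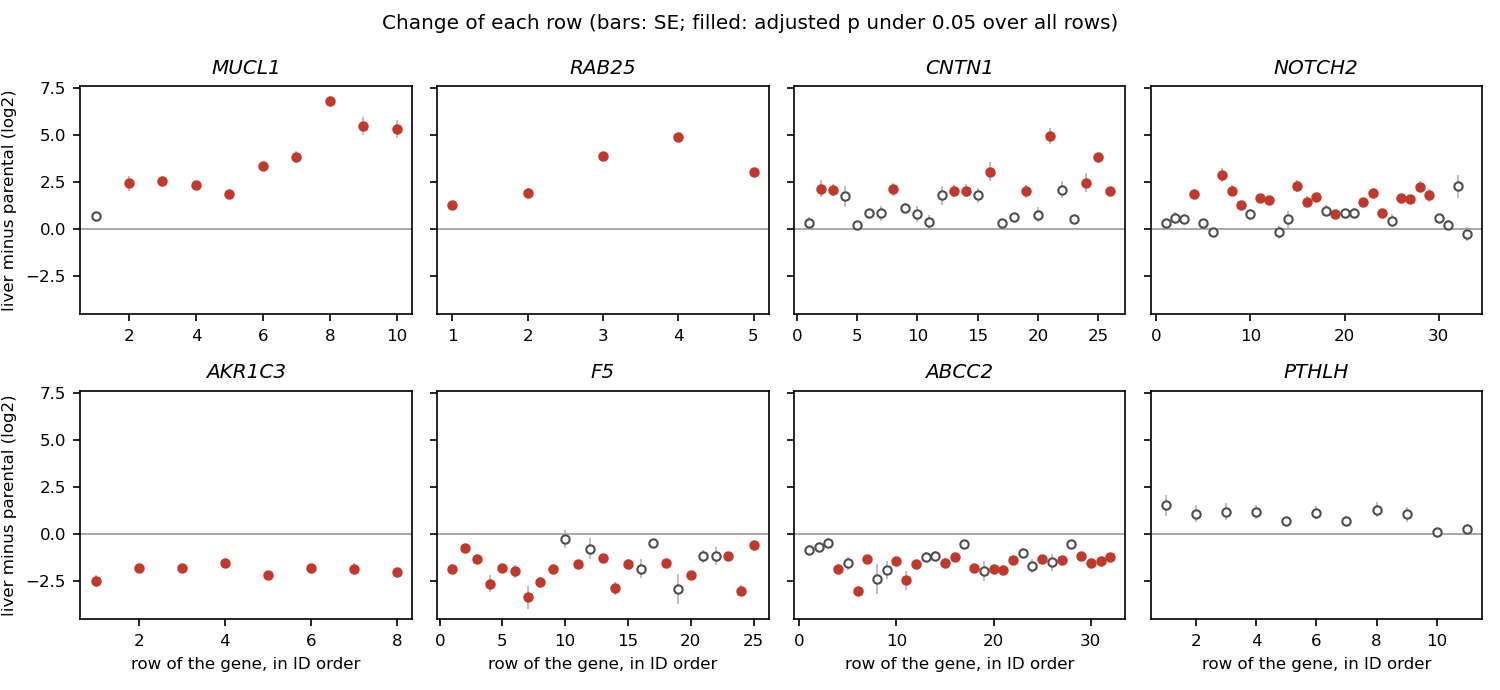
Change of every row of selected genes, liver minus the 4 parental arrays (log2, vertical axis), with the standard error as a bar and filled points for rows called over all rows; rows are in the order of their identifiers (horizontal axis). RAB25 and AKR1C3 were called in all their rows (5 of 5 and 8 of 8), PTHLH in none and the other genes in a part of them. Rows that were not called could still share the direction. Every row of ABCC2 and F5 fell and every row of MUCL1, CNTN1 and PTHLH rose, while rows of NOTCH2 went both ways.

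The largest falls were those of LUM and AKR1C3. AKR1C3, an aldo-keto reductase that reduces steroids and prostaglandin D2, lay at 10.85, 10.75, 10.61 and 10.84 in parental and at 8.84, 8.86 and 8.83 in liver arrays, a fall of 1.92 (SE 0.16, 3.79-fold lower, adjusted p = 2.17e-05), with 8 of 8 rows called. AKR1C4, the family member known from liver, where it acts on steroids and bile acid precursors, lay at 8.22, 8.13, 7.78 and 7.59 in parental and at 6.46, 6.32 and 6.46 in liver arrays (-1.51, SE 0.13, adjusted p = 3.43e-05; 7 of 10 rows). Both genes fell in every liver array, with no overlap between the groups, which the choice of leading falls required. Their neighbours AKR1C1 (-0.14, SE 0.11, adjusted p = 0.589) and AKR1C2 (0.03, SE 0.09, adjusted p = 0.892), which act on steroids and progesterone, overlapped between the groups and had 0 called rows of 8 and 5. The 4 genes are close paralogs and may be read by common probes, which leaves each value uncertain.

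Because these 4 neighbours differed in response, the bases just upstream of their start sites are shown for comparison (RefSeq, GRCh38.p14, 120 bases each, written along the gene's own strand). The stretches are chr10:4963295-4963414 (plus strand) for AKR1C1, chr10:5003858-5003977 (minus) for AKR1C2, chr10:5048661-5048780 (plus) for AKR1C3 at the first of 2 listed starts, and chr10:5196717-5196836 (plus) for AKR1C4. Capitals mark ATTGNTTA, picked after the stretches were seen, which contains the CCAAT box core read on the other strand where N is G.
AKR1C1: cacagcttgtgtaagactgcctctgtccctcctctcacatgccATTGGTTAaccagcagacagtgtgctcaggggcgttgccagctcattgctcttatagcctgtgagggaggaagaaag
AKR1C2: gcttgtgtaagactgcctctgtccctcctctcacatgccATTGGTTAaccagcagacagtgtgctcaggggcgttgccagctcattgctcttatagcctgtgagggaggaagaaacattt
AKR1C3: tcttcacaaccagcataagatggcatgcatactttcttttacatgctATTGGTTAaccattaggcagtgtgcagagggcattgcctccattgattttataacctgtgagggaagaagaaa
AKR1C4: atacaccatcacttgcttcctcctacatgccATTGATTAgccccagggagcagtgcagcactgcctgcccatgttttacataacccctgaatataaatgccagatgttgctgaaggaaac
AKR1C1 and AKR1C2 share a run of 115 bases. AKR1C3 shares at most 12 bases in a row with either of them and 9 with AKR1C4, and AKR1C4 shares at most 11 with AKR1C1 or AKR1C2. Such a run ends at the first mismatch, so it does not measure similarity over the whole stretch. Whether these sequences bear on the response was not tested. The first capital lies 77, 81, 73 and 89 bases before the start of AKR1C1, AKR1C2, AKR1C3 and AKR1C4. Searched on both strands over 300 bases around the start, ATTGNTTA occurred in 2.20% of the 2775 promoters of measured genes with 1 listed start. It was found both in the members that fell and in those that did not, and a match of letters describes the sequence and not a bound site.

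Among 36 aldo-keto reductase, redox and detoxification genes, 3 rose and 3 fell, with a median of -0.07. ABCC2, the apical pump for conjugated bilirubin and drugs, lay at 8.67, 8.76, 8.59 and 8.80 in parental and at 7.22, 7.22 and 7.30 in liver arrays (-1.46, SE 0.10, adjusted p = 4.43e-06; 18 of 32 rows). The groups lay far apart in every array. The rises were smaller: CYP2J2, an arachidonic acid epoxygenase, by 0.54, EPHX1, the microsomal epoxide hydrolase, by 0.52 and AKR1E2 by 0.36. Of 21 organic anion and related transporters SLCO1B3, a bile salt and drug importer of hepatocytes, fell by 1.54 (SE 0.20; 2 of 10 rows) together with ABCC2, and the monocarboxylate carrier SLC16A7 rose by 0.34 (adjusted p = 0.0476). SLCO1B3 was dim throughout, at 5.62 to 6.58 in parental and 4.35 to 4.45 in liver arrays. Other falls were F5, coagulation factor V (-1.69, SE 0.10; 18 of 25 rows), A1CF, the RNA-binding cofactor of apolipoprotein B mRNA editing (-1.40, SE 0.13; 8 of 18 rows, and -0.062 in the brightest row), and the tetraspanin TSPAN8 (-1.12, SE 0.12; 4 of 9 rows). TSPAN8 and TSPAN9 (0.31) were the called members of 18 tetraspanins, whose median was -0.04.

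Of 36 measured Wnt ligands, antagonists, receptors and mediators, 2 rose and 6 fell (3 and 5 against parental arrays 1 to 3), where the shares over all genes were 4.33% and 3.5%, and the median of the list was 0.05. LGR5, the R-spondin receptor that marks intestinal stem cells, lay at 9.64, 9.74, 9.62 and 9.45 in parental and at 8.57, 8.86 and 8.97 in liver arrays (-0.81, SE 0.11, adjusted p = 0.000888; 8 of 18 rows). CD44, a hyaluronan receptor and Wnt target, lay between 7.79 and 7.98 in parental and between 7.11 and 7.39 in liver arrays (-0.67, SE 0.11, adjusted p = 0.00256). EPHB2, a receptor kinase that positions crypt cells, was bright in all arrays and fell by 0.57 (SE 0.07; 11 of 23 rows). None of these overlapped between the groups, which held for 368 of the 369 called genes. Smaller falls were LGR6 (-0.42) and LGR4 (-0.37), the paralogs of LGR5, and BCL9 (-0.38), a coactivator that binds beta-catenin. LGR4 had an adjusted p of 0.033, and of 0.0555 against parental arrays 1 to 3.

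The rises in the Wnt list were CCND2 and DKK1. CCND2, a D-type cyclin that drives entry into the cell cycle, lay at 7.54, 7.72, 7.67 and 6.84 in parental and at 9.70, 9.68 and 9.62 in liver arrays (2.23, SE 0.23, adjusted p = 0.000121; 7 of 10 rows, and 0.33 in the brightest row). DKK1, a secreted antagonist that binds the Wnt co-receptors, lay at 6.60, 7.0, 6.84 and 8.06 in parental and at 8.41, 8.59 and 8.73 in liver arrays (1.46, SE 0.28, adjusted p = 0.00744; 3 of 7 rows). Neither gene overlapped, but parental array 4 departed from the other parental arrays in both, below them in CCND2 and above them in DKK1. Against parental arrays 1 to 3 the rises were 2.03 and 1.77.

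In the Notch list 2 of 15 rose, NOTCH2 and PSEN2 (0.27), a catalytic subunit of gamma-secretase. NOTCH2, a receptor, lay between 7.37 and 7.60 in parental and between 8.56 and 8.63 in liver arrays (1.15, SE 0.07, adjusted p = 1.78e-06; 17 of 33 rows), although its brightest row changed by -0.16. Of 24 TGF-beta and BMP genes LTBP3, which stores latent TGF-beta in the matrix, rose by 0.43 and the co-receptor TGFBR3 fell by 0.76 (SE 0.07; 12 of 20 rows). Of 11 ETS factors FLI1 rose, and the epithelial factors ELF3 (-0.51) and EHF (-0.47) fell. ELF3, EHF, LGR5 and the secreted phospholipase PLA2G2A (-0.35) were the called members of 18 colon epithelium markers, 4 lower and 0 higher, with a median of 0.03. Of 21 early response genes KLF6 rose by 0.58 and JUN (-0.48), BTG2 (-0.47) and PHLDA2 (-0.25) fell.

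LUM, NCAM1 and NRP1 fell by more than 1 log2 unit. LUM, which encodes the collagen-binding proteoglycan lumican, lay at 7.59, 7.51, 7.38 and 8.20 in parental and at 5.72, 5.68 and 5.72 in liver arrays (-1.97, SE 0.20, adjusted p = 7.53e-05; 4 of 6 rows). NCAM1, the neural cell adhesion molecule, lay at 8.61, 8.72, 8.62 and 7.65 in parental and at 6.89, 6.88 and 6.85 in liver arrays (-1.53, SE 0.21; 12 of 24 rows, and -0.76 in the brightest row). NRP1, a co-receptor for semaphorins and VEGF, lay at 8.89, 8.75, 8.68 and 9.62 in parental and at 7.68, 7.73 and 7.66 in liver arrays (-1.30, SE 0.18; 11 of 21 rows, and -0.55 in the brightest row). The liver arrays were tight and below every parental array in all 3, although a position below the parental range was required for the leading falls. Parental array 4 was the stray of its group, high in LUM and NRP1 and low in NCAM1. LUM was the called member of 7 small leucine-rich proteoglycans. Of 23 integrins and adhesion receptors 2 rose, CNTN1 and CADM1 (0.56), and 4 fell, NCAM1, NRP1, CD44 and the integrin subunit ITGA7 (-0.28). Of 30 matrix proteases and inhibitors 0 rose and 2 fell, PLAU (-0.80, SE 0.12, and -0.27 in the brightest row), the urokinase that activates plasminogen, and the secreted protease HTRA1 (-0.79, SE 0.08). Among 7 Eph receptors and ephrins EFNA4 rose by 1.05 (4 of 6 rows, and 0.26 in the brightest row), while EPHB2 and EFNA1 (-0.35) fell. NID1, a basement membrane linker chosen after its values were seen, fell by 1.04 (13 of 21 rows).

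The third largest fall was that of CAMK2N1, which encodes a protein that inhibits CaM kinase II. It lay at 9.58, 9.63, 9.63 and 8.86 in parental and at 7.72, 7.71 and 7.54 in liver arrays (-1.76, SE 0.17, adjusted p = 5.60e-05; 3 of 4 rows). Against parental arrays 1 to 3 its change was -1.95 (SE 0.08). Of 10 measured genes of the calmodulin-dependent kinase list 1 fell, CAMK2N1, and 1 rose, PPFIBP1 (0.37, adjusted p = 0.0396, and 0.075 against parental arrays 1 to 3). The list also holds genes that are not such kinases, and neither called gene encodes one. Of 15 glutamate receptors and synaptic scaffolds 3 fell and 0 rose: GRIN2B, an NMDA receptor subunit (-1.38, SE 0.11; 10 of 15 rows), the scaffold SHANK2 (-0.75) and the kainate receptor GRIK4 (-0.47). Falls outside these lists were GRAMD1B, a cholesterol transporter between membranes (-1.56, SE 0.07; 14 of 21 rows), PHYHIPL (-1.47, SE 0.08; 6 of 7), the small RNA methyltransferase HENMT1 (-1.36, SE 0.18; 5 of 11, but 0.22 in the brightest row) and NCR3LG1 (-1.18, SE 0.13; 4 of 4), the ligand of the natural killer receptor NKp30.

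Over all genes 4.33% were called higher and 3.5% lower. Of 22 hypoxia and glycolysis genes 5 rose and 0 fell, although the median was 0.01 as over all genes. They were the glucose transporters SLC2A3 (0.80, SE 0.18) and SLC2A1 (0.49, SE 0.10), the vasoactive peptide ADM (0.69, SE 0.09), PFKFB2 (0.53), which sets the level of fructose 2,6-bisphosphate, and hexokinase HK1 (0.31). SLC2A1 lay at 11.57, 11.53, 11.57 and 11.18 in parental and at 11.97, 11.99 and 11.90 in liver arrays. The liver arrays were higher than each parental array, and parental array 4 was the lowest. Of 13 cholesterol and lipid synthesis genes 2 rose, IDI1 of the mevalonate pathway (0.60, SE 0.09) and the fatty acid desaturase FADS2 (0.57, SE 0.10). IDI1 changed by -0.08 (adjusted p = 0.918) when a gene's level was the median of its rows instead of their mean. Of 34 cell cycle genes CCND2 and the replication factor MCM10 (0.35) rose and RAD54L (-0.21) fell, and the median was 0.00.

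Of 25 NKG2 and other C-type lectin-like receptor genes 4 were called higher and 0 lower: KLRC3 (1.78, SE 0.11; 2 of 6 rows), KLRC2 (1.82, SE 0.26; 1 of 2 rows), KLRK1 (0.66, SE 0.08; 2 of 11 rows) and KLRC1 (0.40, SE 0.11; 1 of 9 rows). The value of KLRC1 rests mainly on a row that changed by 3.53, and its other rows, none of them called, ran from -0.74 to 1.74. KLRC4 changed by 0.60 (SE 0.18, adjusted p = 0.0858). KLRC3 lay at 5.13, 5.45, 5.43 and 5.02 in parental and at 6.91, 7.16 and 7.05 in liver arrays, a clear separation with gene means within the dim range. Its called rows averaged 4.24 and 5.56 in parental and 8.24 and 9.58 in liver arrays. The called row of KLRC2 averaged 7.53 and 11.33. The other rows of these 2 genes changed by -0.17 to 1.19 and were not called. KLRC1 to KLRC4 are near-identical neighbours, so their values are not separate, and their partner KLRD1 changed by 0.06. Of 30 leukocyte and Kupffer cell markers 4 rose and 0 fell: the lymphocyte receptors CD5 (1.70, SE 0.13; 7 of 11 rows), CD4 (0.99, SE 0.07; 8 of 13) and CD6 (0.47), and the antibacterial enzyme LYZ (0.97, SE 0.15), which gut epithelium also makes. The brightest rows of CD5 and CD4 changed by -0.077 and -0.065.

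The pan-leukocyte phosphatase PTPRC lay between 4.96 and 5.11 in parental and between 4.98 and 5.13 in liver arrays. The T cell receptor chains CD3E (0.04) and CD3D (0.11) and the macrophage genes C1QA (0.12) and CD163 (0.06) did not pass the test. The mean of the 30 markers was 6.51 to 6.59 in parental, 6.67 to 6.74 in liver and 6.81 to 6.82 in lung arrays. Of 21 hepatocyte markers 0 were called, with list means of 6.42 to 6.52 in parental and 6.46 to 6.50 in liver arrays, and APOA1, F2 and SERPINC1 changed by 0.07, 0.03 and 0.06. Of 13 endothelial and 3 biliary markers 0 were called. Of 19 stromal and stellate cell markers LUM fell and the collagen gene COL16A1 rose by 0.25, while DCN changed by 0.05. By limma 3 hepatocyte, 2 endothelial and 0 biliary markers had an unadjusted p under 0.05. Against parental arrays 1 to 3, 1 hepatocyte marker was called lower and 0 endothelial or biliary markers were called. In that fit 1 stromal marker was higher and 1 lower, and 4 leukocyte markers were higher and 0 lower.

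Of 12 p38 pathway kinases and phosphatases 0 were called by limma (2 at an unadjusted p under 0.05), and 2 rose against parental arrays 1 to 3; MAPK11 to MAPK14 are not analysed here. PTHLH, which encodes the parathyroid hormone-related protein, lay at 7.64, 7.84, 8.02 and 8.93 in parental and at 8.78, 9.13 and 9.18 in liver arrays (0.93, SE 0.25, adjusted p = 0.0494; 0 of 11 rows). Parental array 4 lay inside the liver range, and against parental arrays 1 to 3 the rise was 1.20 (SE 0.15, adjusted p = 0.000463). PTHLH was the called member of 2 measured genes of its list. Of 28 interferon-inducible genes IFITM3 rose by 0.75 and IFIT5 fell by 0.35. Of 29 genes on a list of NF-kB, cytokine and survival genes IL10 (0.61) and NFKB2 (0.45) rose. BCL9, which is also on the Wnt list, fell. Of 17 S100 genes S100A3 rose by 0.57, and of 11 p53 targets 1 fell, BTG2. Of 15 unfolded protein and amino acid stress genes 0 were called by limma (2 at an unadjusted p under 0.05).

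**Figure D3:**
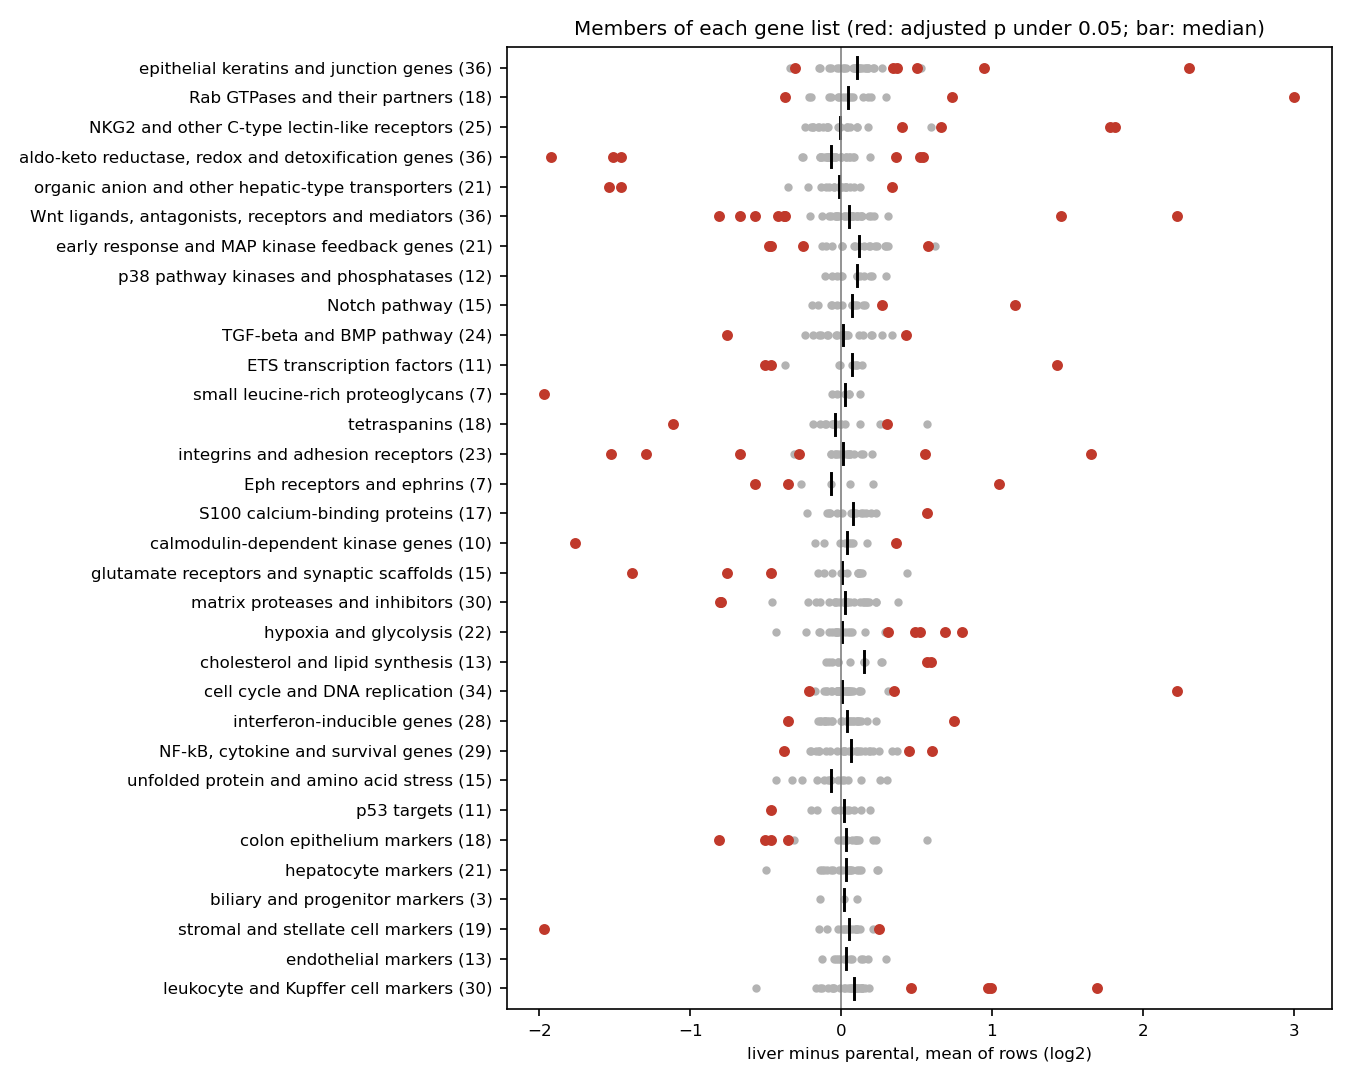
Change of every measured member of each gene list, liver minus the 4 parental arrays (log2, horizontal axis), in red where the adjusted p was under 0.05, with the list median as a bar. The list of PTHLH, with 2 measured genes, is not drawn. Medians lie between -0.07 (unfolded protein and amino acid stress) and 0.15 (cholesterol and lipid synthesis), against 0.01 over all genes. The called members include points far to the sides, such as AKR1C3 at -1.92 and RAB25 at 3.01.

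Parental array 4 changed the size of several results, and these are shown with and without it. Without it CAMK2N1 fell by 1.95 instead of 1.76, NCAM1 by 1.78 instead of 1.53, NRP1 by 1.08 instead of 1.30, SLCO1B3 by 1.33 instead of 1.54 and LUM by 1.79 instead of 1.97. The rise of SLC2A3 was 0.98 instead of 0.80 and that of LYZ 1.13 instead of 0.97. RAB25 (2.99), ADGRL2 (2.23), AKR1C3 (-1.89) and ABCC2 (-1.43) moved by less than their SE. Of the genes called against 4 parental arrays 24 were not called against parental arrays 1 to 3, and 77 were called in the latter fit alone. Over all genes the fit without it called 4.65% higher and 4.31% lower. By list, the counts of higher and lower genes became 7 and 2 for keratins and junctions, 3 and 5 for Wnt, 3 and 4 for early response, 3 and 2 for tetraspanins, 6 and 0 for hypoxia and glycolysis, and 0 and 1 for the calmodulin-dependent kinase list. They became 1 and 3 for glutamate receptors and scaffolds, 1 and 4 for colon markers, 0 and 1 for stress genes, 1 and 3 for Eph receptors and ephrins, 2 and 5 for adhesion receptors, 1 and 2 for TGF-beta, 1 and 3 for transporters, and 4 and 3 for redox and detoxification genes.

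**Figure D4:**
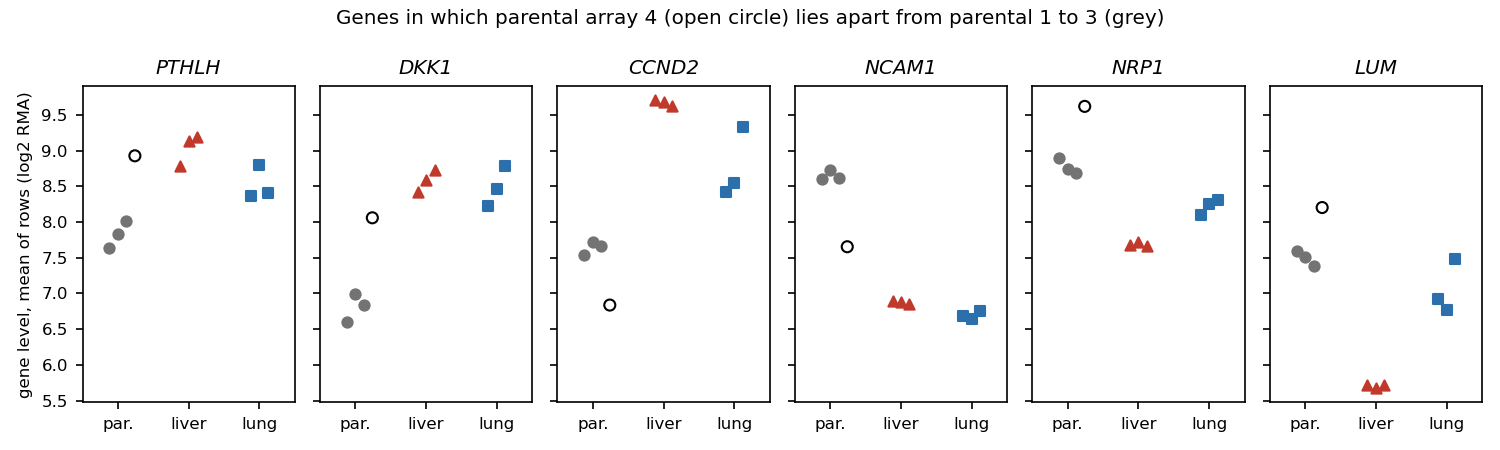
Levels (mean of rows, log2 RMA, vertical axis) in every parental, liver and lung array for genes in which parental array 4 (open circle) stands away from parental arrays 1 to 3 (grey). In NCAM1 it lies at 7.65 against 8.61 to 8.72, and in DKK1 at 8.06 against 6.60 to 7.0.

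On chromosome 10, 13.2% of the genes were called, against 6.70% on chromosome 1, 6.30% on chromosome 11 and 8.35% on chromosome 12. The first 85 genes of chromosome 10 in RefSeq order, from ZMYND11 to STAM, held much of this, a stretch that was delimited after the values were seen and is described without a test. Of these genes 73 had a positive change, 36 were called higher and 4 lower, and the median change was 0.26 (1.20-fold). Elsewhere 168 of 4628 genes were called higher (3.63%), and the 606 later genes of chromosome 10 had a median of -0.01 with 15 called higher and 36 lower. The stretch thus held 17.6% of all genes called higher. Changes in it ran from -1.92 (AKR1C3) to 1.53 (FAM171A1), and 45 of its genes were not called. Among those that rose, GTPBP4, a ribosome assembly GTPase, changed by 0.30, the replication protein KIN by 0.54, the transcription factor subunit TAF3 by 0.49 and ZMYND11 by 0.31. IDI1, KLF6, AKR1E2, MCM10 and FAM171A1, named above, also lie in it, and FAM171A1 was its single rise of at least 1 log2 unit.

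The medians over the stretch were alike in the 3 liver arrays, at 0.24, 0.26 and 0.25 above the parental mean. The lung arrays stood at 0.11, 0.12 and 0.14 and the parental arrays between -0.04 and 0.04. Among the 47 brighter members 45 had a positive change and 33 were called higher, with a median of 0.35. Among the 38 dimmer members 3 were called higher, with a median of 0.10. AKR1C3, AKR1C4, DIP2C (-0.53) and BEND7 (-0.60) fell. Against parental arrays 1 to 3 the median was 0.23, with 34 called higher and 4 lower. Genes of chromosomes 1, 10, 11 and 12 were cut into 116 blocks of about 40 neighbours, without end blocks of fewer than 20 genes. The first pair of chromosome 10 had medians of 0.19 and 0.29. The other 114 blocks lay between -0.11 and 0.11 with at most 7 genes called higher. What lies behind this difference was not tested.

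**Figure D5:**
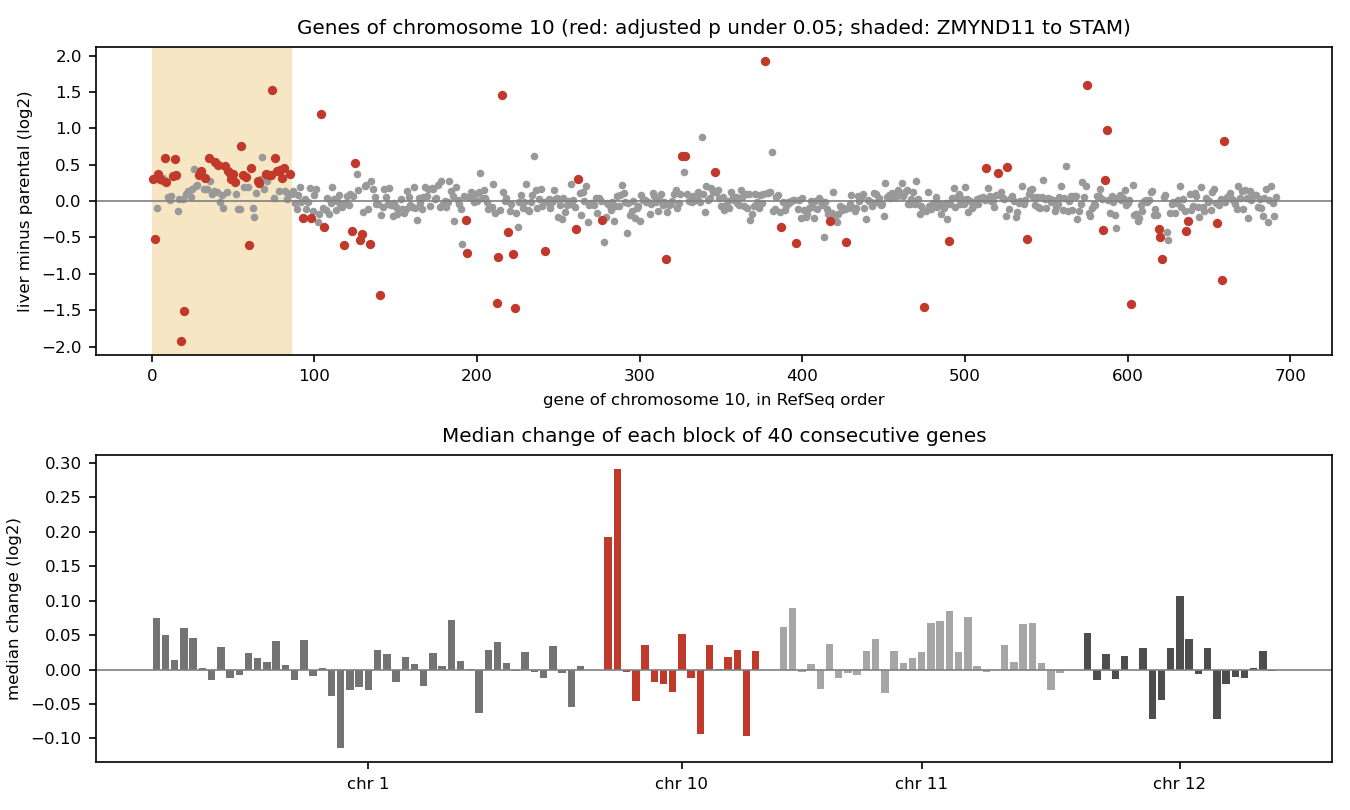
Top, change of each gene of chromosome 10 in RefSeq order, liver minus the 4 parental arrays (log2, vertical axis), red where called and shaded from ZMYND11 to STAM. Bottom, the median change of each block of 40 consecutive genes on chromosomes 1, 10, 11 and 12, where the first pair of blocks of chromosome 10 stands at 0.19 and 0.29 and all others lie within -0.11 to 0.11.

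Whether a change was particular to the liver derivatives was tested against the lung arrays. Lung and liver arrays differed in 937 genes (19.9%), 378 higher and 559 lower in lung, including 119 of the 369. Of these calls 40.3% were higher in lung, and 54.7% once all rows had been quantile normalized. This count rests heavily on single arrays: it was 31 without liver array 2, 174 without liver array 3, 364 without liver array 1 and 1523 without parental array 4. The labels name no batch for either group, so a batch effect was not tested. CNTN1 was lower in lung by 1.28 (adjusted p = 3.17e-06), at 5.76 to 5.82 there and 7.01 to 7.12 in liver arrays. NELL2 (-1.17), CCND2 (-0.90), FLI1 (-0.77) and NOTCH2 (-0.53) were lower in lung too. RAB25 was higher in lung by 0.99 (adjusted p = 1.75e-04), at 10.12 to 10.23. LUM, which fell in liver arrays, was 1.35 higher in lung than in liver, as were F5 (0.59), AKR1C3 (0.60), ABCC2 (0.46), HENMT1 (0.91) and TSPAN8 (0.69). A higher level in lung than in liver does not place lung at the parental level. For AKR1C3 the means were 10.77 in parental, 9.44 in lung and 8.84 in liver arrays. For ABCC2 they were 8.71, 7.70 and 7.25. Lung against parental arrays was not tested here. LGR5 (-0.46) and CD44 (-0.50) were lower still in lung. KRT5 (0.02), CD5 (0.00), FAM171A1 (0.00), CA14 (-0.01), GRAMD1B (0.07), A1CF (0.05) and MUCL1 (-0.69, adjusted p = 0.0618) did not pass this test.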

How the data were processed

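Per the labels' protocols, total RNA was hybridised to Affymetrix HG1.0ST chips. The authors deposited log2 levels. Per the submitters' processing notes these were made with RMA in oligo; versions and summary level are not given in the sources used here. RMA forces arrays onto a common distribution, so a change of total RNA cannot be seen, and the number of arrays limits the precision. The table ends at 65535 rows and may be partial. Rows with several symbols (2143) or no listed gene (8586) named no gene; 4102 of 4727 symbols were current in RefSeq GRCh38.p14, 601 were updated by synonym and 24 kept. Gene means were fitted with limma 3.58.1 (R 4.3.3), 1 coefficient per group over all 10 arrays, eBayes, two-sided, with Benjamini-Hochberg adjustment over 4713 genes, called at 0.05; all adjusted p-values are limma's, and row calls came from the same fit over 54806 rows. Without parental array 4 the fit was repeated. The fit was tested on simulated data.

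Members and lists were chosen with earlier results of these data known. Named were the 15 largest rises and falls (at least 3 rows, called in both fits, groups apart), up to 4 called members of each list with the smallest p, KLRC1 to KLRC4, AKR1C1 to AKR1C4, PTHLH and the p38 kinases. Further called list members, and genes that did not pass, were named to complete a list's count or to check cell types. Alternatives were normalization, row summary, a filter on dim genes, the prior, the samples fitted, a replicate block and leaving out each array.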

Additional observations from a re-analysis of the deposited data

Results flagged for a closer look

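In 5 of 85 named genes 1 parental array stood apart from the other 3 by more than Dixon's 95% limit, which chance passes in about 1 of 20 groups. Parental array 4 was low in CAMK2N1 (8.856 against 9.578 to 9.635), FAM171A1 (8.071 against 8.199 to 8.221), NCAM1 (7.654 against 8.606 to 8.724) and SLC2A1 (11.18 against 11.53 to 11.57). Parental array 3 was low in FADS2 (8.932 against 9.168 to 9.2). Rows with no listed gene, which entered no comparison above, also changed: 43 of 8586 were called between liver and parental arrays by limma, 30 higher and 13 lower (0.501%).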

How the results depend on the processing

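All 85 named genes except AKR1C2, which was not called, kept their direction under the alternatives that kept them, other than the row summary. With the brightest row of a gene, CD4 (-0.065), CD5 (-0.077), HENMT1 (0.22), NELL2 (-0.11), NOTCH2 (-0.16) and PKP1 (-0.13) reversed, 37 more lost their call, and 134 genes were called against 4 parental arrays and 180 against parental arrays 1 to 3; with the median of rows IDI1 reversed (-0.081). Leaving out 1 array gave 219 to 422 genes against 4 parental arrays, 279 to 352 against parental arrays 1 to 3, 31 to 1523 between lung and liver, and 504 to 1433 called rows. The replicate numbers share only a number (correlations of same-numbered deviations -0.13, 0.02 and -0.05); with a replicate block, which leaves parental array 4 without a partner, 348 genes were called, 298 of them among the 369, and 764 rows instead of 1217. The share of higher calls between lung and liver was 40.3% as deposited, 54.7% after quantile normalization, 54.2% after median centring, 64.0% by brightest row and 26.9% with a filter on dim genes. The median over the first 85 genes of chromosome 10 was 0.20 by brightest row, an alternative added after seeing the data. Leaving out a liver array cost 15 to 20 of the 85 named genes their call. Dim signal limits the values of SLCO1B3 and the gene means of KLRC1 to KLRC4. In the latter, called rows that were brighter in liver arrays are averaged with rows that were not called. The cause of the shifts between alternatives was not tested.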
